A study of Rattus norvegicus with 20 samples.

Results

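Integrins are the receptors by which a cell holds on to its matrix. The 10 genes described here are 6 integrin alpha subunits (Itga1, Itga5, Itga6, Itga7, Itga8 and Itgav), 2 beta subunits (Itgb1 and Itgb5), the integrin beta-like protein Itgbl1 and the integrin-linked kinase Ilk. They were followed in the right ventricle of male Sprague Dawley rats of about 350 g, a common outbred laboratory strain, in 4 groups of 5 arrays each. In the groups PE2.0 outflow and PE2.0 apex, 2000000 polystyrene microspheres of 25 micron per 100 g of body weight, in 0.01% Tween-20, had been injected into the right jugular vein 6 weeks earlier, a model of chronic pulmonary embolism. In vehicle outflow and vehicle apex, the rats had received 0.01% Tween-20 alone and were also examined after 6 weeks. The hearts of all groups were rinsed on a perfusion apparatus, and the free right ventricle was cut into 2 pieces, outflow tract (base) and apex. The label text on handling speaks of vehicle in every sample, but titles and treatment text tell PE2.0 from vehicle, and the groups follow the titles. Every probe set (a group of array probes for 1 transcript) whose only gene symbol is one of the 10 genes was taken, which gave 21 of the 31042 probe sets tested and 10 of 14217 genes. The rule itself uses gene symbols only, though the 10 genes were picked with earlier results of these data known. The titles call the replicates biological and number them 1 to 5 in each group.

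An integrin is a pair of 1 alpha and 1 beta chain that spans the membrane. Outside the cell the pair binds matrix proteins such as laminin, collagen or fibronectin, and inside it recruits talin, vinculin and a complex of Ilk with a Pinch (Lims) and a parvin protein, which link it to actin. The beta1 chain, Itgb1, pairs with most of the alpha chains measured here. Itga7 with Itgb1 is the laminin receptor of mature striated muscle, while Itga8 and Itgav form receptors for proteins with an RGD (arginine-glycine-aspartate) motif, and receptors that contain Itgav can release latent TGF-beta from the matrix.

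The values are linear signals that had been scaled before deposit: trimmed of 2% at each end, every array had a mean of 500.2. The median signal of an array was 123 to 159. The GAPDH control probes give a 3'/5' signal ratio that is higher in shorter RNA, and it was 6.12 on PE2.0 outflow replicate 2, 2.20 on replicate 4, 2.34 on replicate 5 and 1.70 and 1.71 on replicates 3 and 1. On the 15 other arrays it was 1.38 to 1.83. Outflow changes of the brightest probe sets are therefore given with and without replicate 2.

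In the outflow tract, 5 of the 10 genes rose and 1 fell in PE2.0 rats, by the brightest probe set of each gene. Itga8, Itgbl1, Itgav, Itgb1 and Itgb5 were higher, Itga7 was lower, and Itga1, Itga5, Itga6 and Ilk did not pass the test. Without PE2.0 outflow replicate 2, Itga5 and Itga6 were called lower too and Ilk higher. Their log2 changes were then -0.42, -0.55 and 0.43 (limma, adjusted p 0.00928, 0.0128 and 0.00946). With PE2.0 outflow replicates 1 and 3 only, none of Itga5, Itga6 and Ilk was called by its brightest probe set. Over all probe sets, 13 of 21 were called (limma, Benjamini-Hochberg adjusted p under 0.05 over 31042 probe sets), 10 higher and 3 lower. Among all probe sets tested, 34.5% were called in this comparison, 19.6% higher and 14.9% lower. The groups did not overlap for 8 of the 21, 6 of them with every PE2.0 array above every vehicle array and 2 with every PE2.0 array below. The backgrounds for these counts were 13.4% and 9.98% of all probe sets. The median log2 change of the 21 probe sets was 0.42, against 0.05 for all probe sets tested.

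**Figure D1:**
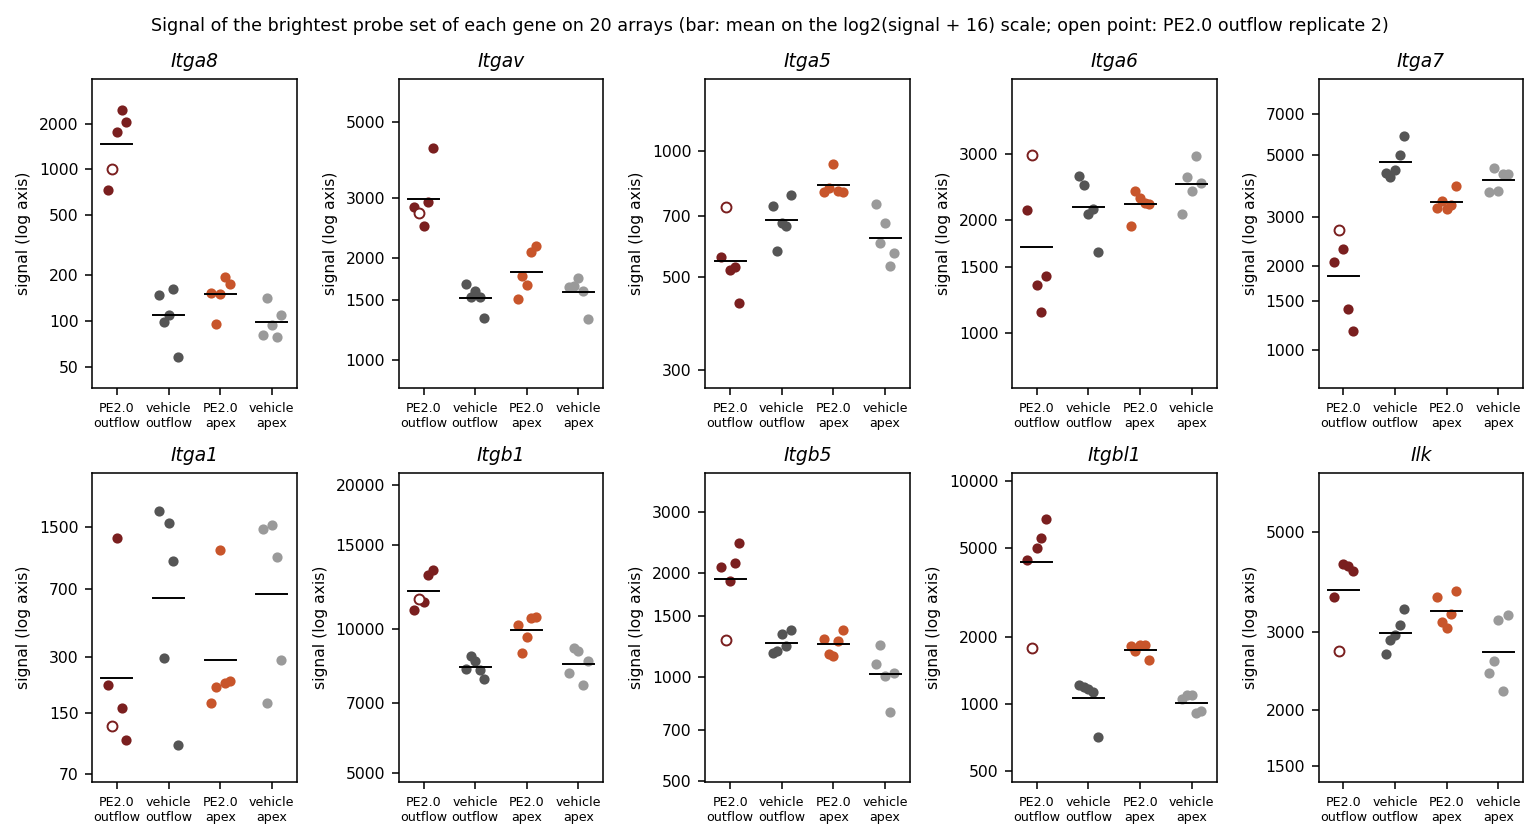
Signal of the brightest probe set of each gene on each of 20 arrays (log axis), 5 points a group, with bars at the mean taken on log2(signal + 16) and an open point for PE2.0 outflow replicate 2. For Itga8 the PE2.0 outflow arrays lie at 733 to 2468 and the vehicle outflow arrays at 57.5 to 161, while for Itga7 they lie at 1172 to 2696 and 4169 to 5849.

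In the apex, none of the 21 probe sets was called by limma, and 4 had an unadjusted p under 0.05. Of all probe sets, 0.0129% were called in the apex and 7.47% had such an unadjusted p. The PE2.0 and vehicle apex arrays did not overlap for 3 of the 21, the probe sets of Itga5 and Itgbl1 and the dimmer one of Itgb1, all with PE2.0 above. The backgrounds were 1.56% of probe sets for PE2.0 above and 1.5% for PE2.0 below. The median log2 change of the 21 was 0.21, against 0.0033 for all probe sets.

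**Figure D2:**
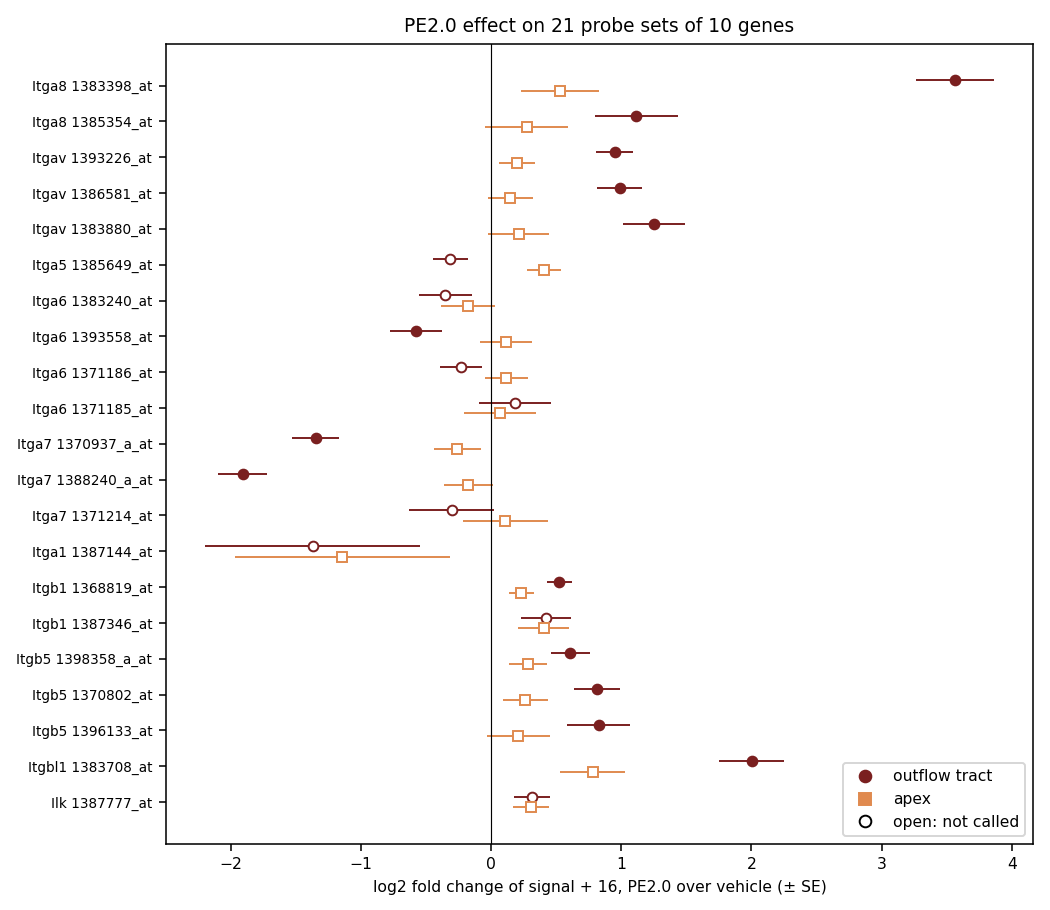
log2 fold change of PE2.0 over vehicle (x axis, of signal plus 16) with its standard error for the 21 probe sets, circles for the outflow tract and squares for the apex, filled where called. In the outflow tract 10 probe sets are filled on the right of 0 and 3 on the left; no apex value is filled.

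The 5 genes that rose lie on 5 chromosomes, and the 250 bases before their transcription start are shown to let their promoters be compared (RefSeq, rat build GRCr8, read 5′ to 3′ on the strand of the gene, with the GC box GGGCGG or its reverse complement CCGCCC in capitals).
Itga8, chr17:80410634-80410883 (minus strand): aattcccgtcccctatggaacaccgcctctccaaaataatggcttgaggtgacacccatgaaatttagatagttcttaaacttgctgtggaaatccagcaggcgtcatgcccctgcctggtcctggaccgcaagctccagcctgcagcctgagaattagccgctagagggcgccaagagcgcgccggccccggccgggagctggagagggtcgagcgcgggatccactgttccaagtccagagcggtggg
Itgbl1, chr15:107186542-107186791 (plus strand): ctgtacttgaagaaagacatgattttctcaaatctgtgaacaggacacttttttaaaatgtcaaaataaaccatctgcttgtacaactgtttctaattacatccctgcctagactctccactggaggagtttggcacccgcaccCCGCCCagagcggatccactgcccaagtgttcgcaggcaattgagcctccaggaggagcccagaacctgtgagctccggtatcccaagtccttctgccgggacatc
Itgav, chr3:89245132-89245381 (plus strand): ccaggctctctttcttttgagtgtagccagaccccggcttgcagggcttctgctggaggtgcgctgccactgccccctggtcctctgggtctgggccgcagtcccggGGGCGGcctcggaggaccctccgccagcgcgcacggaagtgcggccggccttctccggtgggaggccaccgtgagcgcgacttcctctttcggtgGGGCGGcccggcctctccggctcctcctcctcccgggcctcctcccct
Itgb1, chr19:73602027-73602276 (plus strand): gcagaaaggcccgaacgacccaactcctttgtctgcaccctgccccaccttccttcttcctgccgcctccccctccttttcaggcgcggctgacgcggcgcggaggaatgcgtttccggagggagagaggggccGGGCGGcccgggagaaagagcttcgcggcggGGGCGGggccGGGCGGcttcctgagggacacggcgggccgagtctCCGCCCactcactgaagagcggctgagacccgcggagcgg
Itgb5, chr11:80449374-80449623 (minus strand): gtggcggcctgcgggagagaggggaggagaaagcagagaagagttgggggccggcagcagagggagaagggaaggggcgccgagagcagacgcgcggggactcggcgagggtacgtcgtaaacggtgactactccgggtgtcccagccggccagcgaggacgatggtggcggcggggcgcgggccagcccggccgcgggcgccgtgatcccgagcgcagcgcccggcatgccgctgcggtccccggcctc
Of the 10 genes, 8 had a promoter entry, and these 8 held 4 GC boxes in Itgb1, 2 each in Itgav and Ilk, 1 each in Itgbl1 and Itga5, and 0 in Itga8, Itgb5 and Itga1. The GC box is a DNA motif bound by Sp-family factors, and 30.47% of 33469 rat promoters of this length held at least 1. None of the 8 held the TATA box TATAAA, present in 12.93% of promoters, or a CArG box, the motif of serum response factor, present in 1.5%. The muscle motif MCAT, CATTCC, was found once, in Itgb1, and in 12.06% of all promoters. None held the AP-1 site TGANTCA (6.34% of promoters), while the E-box CANNTG (65.54%) was in Itgbl1, Itga1 and Itga5 and the Smad box CAGAC (42.93%) in Itgav, Itgb1, Itgb5, Itga1 and Ilk. Motifs were searched on both strands, and GC boxes were not compared with other motifs for overlap. The GC share of the windows was 59.6% for Itga8, 49.6% for Itgbl1, 72.0% for Itgav, 71.2% for Itgb1 and 74.4% for Itgb5, against a median of 51.2%.

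Itga8 encodes the alpha8 chain, which pairs with Itgb1 to bind nephronectin and other RGD proteins and is known in smooth muscle and other contractile mesenchymal cells. Its brighter probe set (1383398_at) gave signals of 733, 1006, 1761, 2468 and 2058 on PE2.0 outflow replicates 1 to 5, against 147, 97.9, 110, 161 and 57.5 on vehicle outflow arrays. Every PE2.0 array was far above every vehicle array, and the vehicle arrays lay at about the median signal of an array or below it. The log2 change was 3.56 ± 0.30 (SE), or 11.8-fold on signal plus 16 (limma, adjusted p 9.31e-08), and 3.69 without PE2.0 outflow replicate 2 (limma, adjusted p 1.01e-07). The dimmer probe set (1385354_at) averaged 138 ± 63.0 on PE2.0 and 52.0 ± 14.4 on vehicle outflow arrays (SD, n = 5 each). It also separated the groups, with a log2 change of 1.12 ± 0.32 (limma, adjusted p 0.0096), and with PE2.0 outflow replicates 1 and 3 alone it was not called (limma, adjusted p 0.0819). In the apex the brighter probe set averaged 153 ± 36.9 in PE2.0 and 101 ± 26.1 in vehicle rats (SD, n = 5 each), and those groups overlapped (log2 change 0.53 ± 0.30, limma adjusted p 0.743).

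Itgav encodes the alpha-v chain of the vitronectin and fibronectin receptors. Its 3 probe sets all rose in the outflow tract, by 0.95 ± 0.14, 0.99 ± 0.18 and 1.25 ± 0.24 on the log2 scale (limma, adjusted p 2.71e-05, 0.000189 and 0.000321). The brightest (1393226_at) read 2805, 2701, 2469, 2920 and 4178 on PE2.0 outflow arrays, against 1669, 1529, 1596, 1530 and 1331 on vehicle outflow arrays. These groups were apart, as were those of the second probe set (1386581_at), whereas for the third (1383880_at) PE2.0 replicate 2, at 158, lay below vehicle replicate 3, at 184. Without PE2.0 outflow replicate 2 the 3 changes were 0.98, 1.13 and 1.50 (limma, adjusted p 3.02e-05, 1.56e-05 and 4.41e-06). In the apex Itgav averaged 1835 ± 275 in PE2.0 and 1590 ± 158 in vehicle rats (SD, n = 5 each), a log2 change of 0.20 ± 0.14 that was not called (limma, adjusted p 0.807).

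In the main fit, Itga7, the alpha chain of the muscle laminin receptor, was the only one of the 10 genes called lower by its brightest probe set. That probe set (1370937_a_at) read 2067, 2696, 2312, 1412 and 1172 on PE2.0 outflow arrays, against 4311, 4169, 4404, 5016 and 5849 on vehicle outflow arrays. All PE2.0 arrays were below all vehicle arrays, and the lowest were PE2.0 replicates 4 and 5. The log2 change was -1.35 ± 0.18, or 2.54-fold lower (limma, adjusted p 9.88e-06), and -1.48 without PE2.0 outflow replicate 2 (limma, adjusted p 1.66e-06). A second probe set (1388240_a_at) averaged 765 ± 275 on PE2.0 and 2819 ± 624 on vehicle outflow arrays (SD, n = 5 each), a log2 change of -1.91 ± 0.19 (limma, adjusted p 4.67e-07). The third probe set (1371214_at) lay between 2.20 and 45.3 on every array and was not called (log2 change -0.30 ± 0.33, limma adjusted p 0.534). In the apex the brightest averaged 3407 ± 282 in PE2.0 and 4087 ± 371 in vehicle rats (SD, n = 5 each), with overlap (log2 change -0.26 ± 0.18, limma adjusted p 0.803).

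Replicates 4 and 5 of PE2.0 outflow, which were lowest for Itga7, were also the highest of the group for Itga8, Itgav, Itgb1, Itgb5 and Itgbl1, by the brightest probe sets. These are the arrays with GAPDH ratios of 2.20 and 2.34. With PE2.0 outflow replicates 1 and 3 alone, whose ratios lay within the range of the other 15 arrays, Itga8 changed by 3.21 and Itga7 by -1.10 on the log2 scale (limma, adjusted p 1.09e-05 and 4.11e-05).

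Itga6 is another laminin-binding alpha chain of the set and pairs with Itgb1 or Itgb4. Its brightest probe set (1383240_at) read 2138, 2979, 1347, 1142 and 1424 on PE2.0 outflow arrays, against 2619, 2486, 2085, 2140 and 1651 on vehicle outflow arrays. PE2.0 replicate 2 was the highest of all 10, and 3 PE2.0 arrays were below every vehicle array. It was not called (log2 change -0.35 ± 0.20, limma adjusted p 0.206), and without PE2.0 outflow replicate 2 the log2 change was -0.55 (limma, adjusted p 0.0128). It was also called lower with array weights or the GAPDH ratio as a covariate, but not with PE2.0 outflow replicates 1 and 3 alone. Of its 3 dimmer probe sets, 1 (1393558_at) fell, by 0.58 on the log2 scale (limma, adjusted p 0.0307). That call was lost on leaving out any one of 5 arrays, vehicle outflow replicate 1, 2 or 5 or PE2.0 outflow replicate 2 or 5, with adjusted p of 0.0666 to 0.0779 in limma. The others (1371186_at and 1371185_at) changed by -0.23 and 0.18, not called.

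Itga5, the alpha chain of the classical fibronectin receptor, had a negative log2 change in the outflow tract and a positive one in the apex. Neither was called in the main fit. In the outflow tract its probe set (1385649_at) read 559, 738, 520, 529 and 434 on PE2.0 arrays, against 741, 579, 674, 662 and 787 on vehicle arrays. The groups overlapped through PE2.0 replicate 2, and the log2 change of -0.31 ± 0.13 was not called (limma, adjusted p 0.0782). It was called without PE2.0 outflow replicate 2 (-0.42, limma adjusted p 0.00928) and without vehicle outflow replicate 2 (-0.37, limma adjusted p 0.0493). With all arrays kept, it was also called with quantile normalization, arrays centred on their median, array weights or the GAPDH ratio as a covariate. Leaving out the 40% dimmest probe sets gave the outflow call too. In the apex it read 802, 816, 932, 805 and 799 on PE2.0 arrays, against 750, 603, 675, 533 and 571 on vehicle arrays. Every PE2.0 apex array was above every vehicle apex array, although the log2 change of 0.41 ± 0.13 was not called (limma, adjusted p 0.428). The difference between the effects of PE2.0 in the 2 regions was called, at -0.72 ± 0.19 (limma, adjusted p 0.0122). Of the alternatives, only a minimum fold of 1.2 lost this call.

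Itga1, a collagen-binding alpha chain, showed a pattern unlike the other 9 genes. Its signal (1387144_at) was 211, 128, 1313, 159 and 107 on PE2.0 outflow arrays, against 1837, 296, 1579, 982 and 101 on vehicle outflow arrays. In the apex it was 170, 205, 1136, 217 and 221 on PE2.0 arrays, against 1466, 169, 1541, 1035 and 289 on vehicle arrays. The arrays fell into a high set of 8, at 982 to 1837, and a low set of 12, at 101 to 296, with a gap of 1.68 log2 units between them. The high arrays were PE2.0 replicate 3 and vehicle replicates 1, 3 and 4, in both regions alike, so that all 10 replicate numbers had apex and outflow on the same side. Neither PE2.0 comparison was called (outflow -1.37 ± 0.82, limma adjusted p 0.227, and -1.17 without PE2.0 outflow replicate 2, limma adjusted p 0.343; apex -1.14 ± 0.82, limma adjusted p 0.81). With the 2 regions of a replicate number compared within that number, outflow minus apex was -0.30 in PE2.0 rats and -0.07 in vehicle rats (limma with a rat term, adjusted p 0.483 and 1). A gap at least this wide occurred in 192 of the 31042 probe sets. In 5 of these, Itga1 among them, the gap kept both regions of every replicate number together, with at least 2 numbers on either side. The width and this rule were taken from Itga1 itself, so Itga1 is among the 5 by construction. The other 4 were RT1-Bb and RT1-Ba, rat MHC class II genes, Elavl1 and a probe set with 2 symbols, RT1-A3 and RT1-A2. Elavl1 encodes an RNA-binding protein. These 4 were found by this count and not chosen beforehand. None of them had the same arrays above its gap as Itga1.

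**Figure D3:**
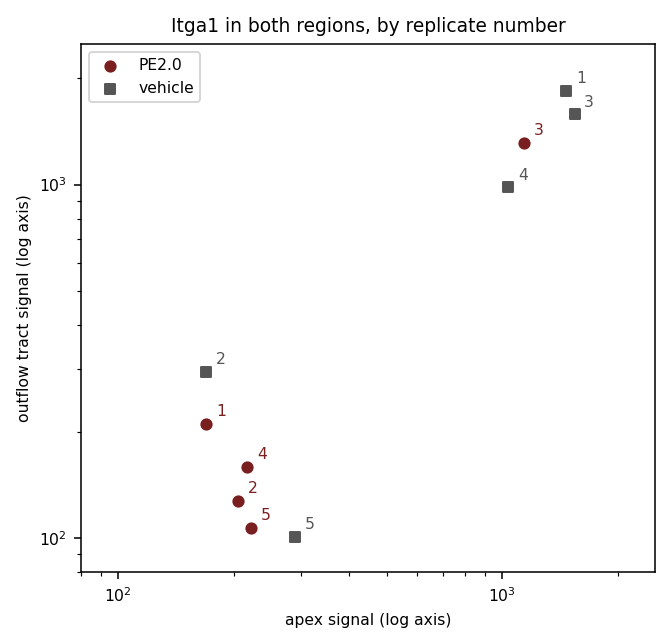
Itga1 signal in the outflow tract (y, log axis) against the apex (x, log axis), 1 point per replicate number, circles for PE2.0 and squares for vehicle. PE2.0 number 3 and vehicle numbers 1, 3 and 4 lie at the upper right, at 982 or more in both regions, and the other 6 at the lower left.

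Itgb1, the common beta chain, lay at percentile 98.7 of all probe sets by mean log2 signal. Its brightest probe set (1368819_at) read 10985, 11533, 11373, 12947 and 13260 on PE2.0 outflow arrays, against 8249, 8784, 8553, 8211 and 7849 on vehicle outflow arrays. The groups were fully apart, with a log2 change of 0.53 ± 0.095 (limma, adjusted p 0.000215), or 1.44-fold, and 0.54 without PE2.0 outflow replicate 2 (limma, adjusted p 0.000175). The second probe set (1387346_at) read 2410 on PE2.0 outflow replicate 2, below all vehicle outflow arrays, and 5175 to 6438 on the 4 other PE2.0 arrays, above all of them. It was not called in the main fit (0.42 ± 0.19, limma adjusted p 0.104) and was called without replicate 2 (0.67, limma adjusted p 0.000158). With replicate 2 kept, it was also called with quantile normalization, array weights or the GAPDH ratio as a covariate. In the apex the brightest averaged 9968 ± 713 in PE2.0 and 8483 ± 621 in vehicle rats (SD, n = 5 each), not called at a log2 change of 0.23 ± 0.095 (limma, adjusted p 0.585).

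Itgb5 encodes a beta chain that pairs with Itgav in a vitronectin receptor. Its brightest probe set (1398358_a_at) read 2073, 1276, 1889, 2132 and 2426 on PE2.0 outflow arrays, against 1169, 1185, 1330, 1224 and 1365 on vehicle outflow arrays. Only PE2.0 replicate 2 lay within the range of the vehicle arrays. The log2 changes of its 3 probe sets were 0.61 ± 0.15, 0.81 ± 0.17 and 0.83 ± 0.24, all called (limma, adjusted p 0.00309, 0.000973 and 0.0111), the second from 1370802_at and the last from a dim probe set (1396133_at) at 8.35 to 92.6 on every array. Without PE2.0 outflow replicate 2 they were 0.75, 0.99 and 0.74 (limma, adjusted p 5.63e-05, 1.02e-05 and 0.0277). The dim probe set averaged 71.4 ± 13.8 on PE2.0 outflow, 68.8 ± 11.4 on PE2.0 apex, 37.0 ± 22.8 on vehicle outflow and 57.9 ± 14.0 on vehicle apex arrays (SD, n = 5 each), so vehicle outflow was the group that stood lower. Its outflow call was lost in 4 of 32 alternatives, among them PE2.0 outflow replicates 1 and 3 alone and the GAPDH ratio as a covariate (limma, adjusted p 0.148 and 0.111). In the apex Itgb5 averaged 1243 ± 88.1 in PE2.0 and 1027 ± 161 in vehicle rats (SD, n = 5 each), with a log2 change of 0.28 ± 0.15 (limma, adjusted p 0.719).

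Itgbl1 encodes a protein of EGF-like repeats that resemble those of integrin beta chains, without being a subunit itself. Its only probe set (1383708_at) read 4433, 1789, 5005, 5583 and 6796 on PE2.0 outflow arrays, against 1215, 1199, 1176, 1132 and 714 on vehicle outflow arrays. All PE2.0 arrays were higher, replicate 2 by the least. The log2 change was 2.00 ± 0.25, or 4.0-fold (limma, adjusted p 4.84e-06), and 2.32 without PE2.0 outflow replicate 2 (limma, adjusted p 9.86e-09). In the apex it read 1821, 1740, 1834, 1842 and 1573 on PE2.0 arrays, against 1059, 1099, 1100, 916 and 931 on vehicle arrays. The apex groups were also fully apart, at a log2 change of 0.78 ± 0.25 that was not called (limma, adjusted p 0.409). Without PE2.0 outflow replicate 2, which enters the shared estimate of the spread, the same apex change was called (limma, adjusted p 0.0445).

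Ilk is the kinase-like scaffold at the inner face of beta1 integrins. Its probe set (1387777_at) read 3584, 2718, 4244, 4201 and 4108 on PE2.0 outflow arrays, against 2677, 2870, 2953, 3096 and 3365 on vehicle outflow arrays. Only PE2.0 replicate 2 overlapped the vehicle arrays, and the log2 change of 0.32 ± 0.14 was not called (limma, adjusted p 0.0875), whereas without that array it was 0.43 (limma, adjusted p 0.00946). In the apex it averaged 3351 ± 275 in PE2.0 and 2733 ± 472 in vehicle rats (SD, n = 5 each), with a log2 change of 0.31 ± 0.14 (limma, adjusted p 0.639).

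Among the partners of Ilk, Parva and Parvb moved in opposite directions in the outflow tract. Parva (alpha-parvin), which is broadly expressed, averaged 2775 ± 704 on PE2.0 and 991 ± 91.1 on vehicle arrays (SD, n = 5 each), while Parvb (beta-parvin), prominent in heart and skeletal muscle, averaged 702 ± 123 and 1582 ± 148 there. Parva rose by 1.44 ± 0.14 and Parvb fell by 1.17 on the log2 scale (limma, adjusted p 4.4e-07 and 6.59e-07), both without overlap. A dim second probe set of Parva was not called (0.17 ± 0.55), and 2 further probe sets of Parvb fell too, by 1.23 and 1.50. Lims2 (Pinch2) averaged 3425 ± 1148 on PE2.0 and 7949 ± 948 on vehicle arrays (SD, n = 5 each) and fell by 1.27 (limma, adjusted p 1.63e-05). Lims1 (Pinch1) changed by -0.19 ± 0.11 and was not called (limma, adjusted p 0.219). A second probe set of Lims1 changed by -0.42 ± 0.26, also not called. Rsu1, which binds Pinch1, rose by 0.67 ± 0.14 (limma, adjusted p 0.000637). Itgb1bp2 (melusin), a muscle protein that binds the beta1 tail, averaged 2724 ± 1380 on PE2.0 and 5919 ± 369 on vehicle arrays (SD, n = 5 each) and fell by 1.26 (limma, adjusted p 0.000249). The effects differed between the regions for Parva, Parvb, Lims2 and Itgb1bp2 (limma, adjusted p 0.000548, 0.000903, 0.00408 and 0.0123), and for Rsu1 and Lims1 this difference was not called (limma, adjusted p 0.195 and 0.203).

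Of the adaptor and kinase list as a whole, 36 of 38 genes were measured, and 15 rose, 10 fell and 11 were not called in the outflow tract, against 19.6% higher and 14.9% lower among all probe sets. The median log2 change of the list was 0.21, against 0.05 for all probe sets. Actn1 and Actn4, alpha-actinins that crosslink actin, rose by 2.23 ± 0.24 and 1.22 ± 0.12 (limma, adjusted p 9.61e-07 and 4.53e-07). The actin crosslinker Flna (filamin A) rose by 1.57 ± 0.17 and the LIM protein Csrp1 by 1.60 ± 0.19 (limma, adjusted p 9.91e-07 and 2.56e-06). Ptk2, the focal adhesion kinase, rose by 0.48 ± 0.11 (limma, adjusted p 0.00176), and Vcl (vinculin) fell by 0.68 (limma, adjusted p 0.00853). Talin genes, whose products switch integrins on, were mixed. Tln2, the form prominent in heart muscle, fell by 0.48 (limma, adjusted p 0.0105), and Tln1 changed by 0.39 ± 0.18, not called (limma, adjusted p 0.096). Of the other probe sets, for Vcl 1 fell by 0.79 and 1 changed by -0.10, not called, and the second of Ptk2 changed by 0.65 ± 0.39, not called. Both others of Tln2 were not called, at -0.45 ± 0.37 and -0.02 ± 0.45. With PE2.0 outflow replicates 1 and 3 only, 10 rose and 8 fell, and without replicate 2, 14 rose and 10 fell.

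**Figure D4:**
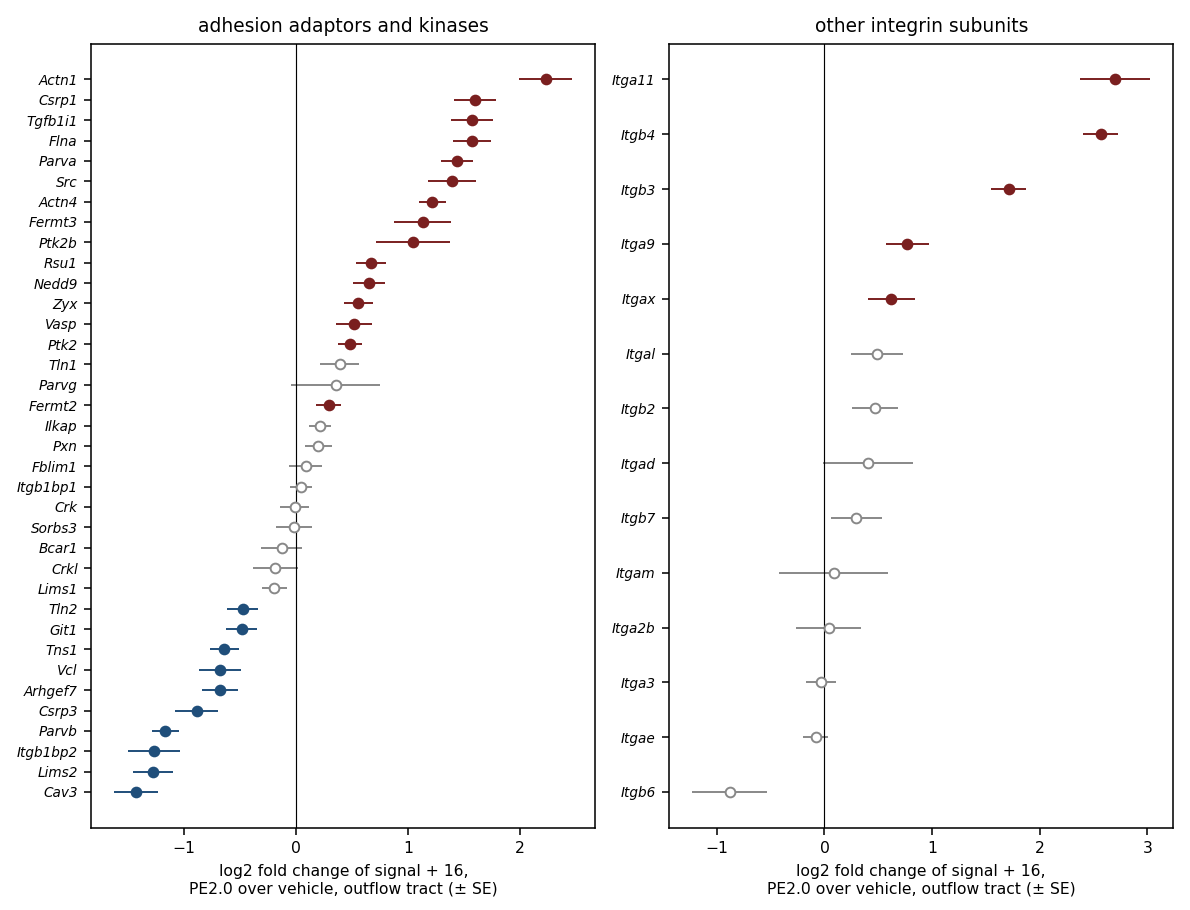
log2 fold change of PE2.0 over vehicle in the outflow tract (x axis, of signal plus 16) with its standard error, for adhesion adaptors and kinases (left) and integrin subunits outside the 10 genes (right), 1 point per gene, filled red where higher, blue where lower and open where not called. Parva lies at 1.44 and Parvb at -1.17; Itga11 and Itgb4 lie at 2.70 and 2.57.

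Of 18 further integrin subunit genes, 14 were measured, and 5 rose in the outflow tract, none fell and 9 were not called. Of all probe sets, 19.6% were called higher and 14.9% lower. The median log2 change was 0.44, against 0.05 for all probe sets. Itgb4, the partner of Itga6 in epithelial and Schwann cells, averaged 2123 ± 528 on PE2.0 and 334 ± 16.5 on vehicle arrays (SD, n = 5 each). It rose by 2.57 ± 0.16 (limma, adjusted p 8.89e-09). Itgb3, the other vitronectin receptor beta chain that pairs with Itgav, rose by 1.71 ± 0.16 (limma, adjusted p 2.64e-07), and Itga11, a collagen receptor chain of fibroblasts that pairs with Itgb1, by 2.70 ± 0.33 (limma, adjusted p 3.24e-06). Itga9 and the leukocyte chain Itgax rose by 0.77 ± 0.20 and 0.62 ± 0.22 (limma, adjusted p 0.00564 and 0.033). A dim second probe set of Itga9 was not called, and with PE2.0 outflow replicates 1 and 3 only, 3 of the 14 rose. With arrays centred on their median, 4 rose and 1 fell.

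Proteins that integrins bind were measured for 27 of 30 listed genes. By the brightest probe set of each gene, 21 rose, 1 fell and 5 were not called in the outflow tract. Among all probe sets, 19.6% were called higher and 14.9% lower. The median log2 change was 0.93, against 0.05 for all probe sets. Ccn2, a matricellular protein, averaged 21186 ± 4898 on PE2.0 and 2367 ± 691 on vehicle arrays (SD, n = 5 each), a rise of 3.17 ± 0.25 (limma, adjusted p 6.84e-08). Fbn1 (fibrillin 1) rose by 2.17 ± 0.18, Vwf by 1.84 ± 0.18, Col1a2 by 1.67 ± 0.18, Col1a1 by 1.66 ± 0.18 and Col3a1 by 0.93 ± 0.12 (limma, adjusted p 9.31e-08, 4.61e-07, 9.22e-07, 9.36e-07 and 5.72e-06). Of the other ligand probe sets, those of Col1a1, Col1a2, Col4a1 and Fbn1 also rose. Those of Lama4 (0.35), Lama5 (-0.15 and 0.43), Lamc1 (-0.57) and Nid1 (-0.25) were not called. Vtn (vitronectin) was the 1 that fell, by 0.94, but its groups overlapped. It lay at 152 to 933 on PE2.0 and at 587 to 728 on vehicle outflow arrays, so the highest PE2.0 array was above every vehicle array. In the apex no gene of the subunit, adaptor or ligand lists was called by limma, and their median log2 changes were -0.05, 0.01 and 0.28.

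Markers of several cell types also changed in the outflow tract, where 19.6% of all probe sets were called higher and 14.9% lower. Col1a1 and Col1a2 are in both the ligand and the fibroblast lists, and Itgb2 is in both the subunit and the macrophage lists. Of 9 measured cardiomyocyte markers, 7 fell and none rose, and their summed signal was 178010 to 486492 on PE2.0 arrays, against 359485 to 428211 on vehicle arrays. Without PE2.0 outflow replicate 2 all 9 were called lower. Of 9 fibroblast markers 8 rose, with sums of 139586 to 166868 on PE2.0 and 56255 to 81655 on vehicle arrays. Of 8 smooth muscle and pericyte markers 6 rose and 1 fell, with sums of 19555 to 42070 on PE2.0 and 7653 to 10370 on vehicle arrays. Of 8 monocyte and macrophage markers 7 rose, with sums of 7137 to 20384 on PE2.0 and 5369 to 6425 on vehicle arrays. All 3 Schwann cell markers and all 3 chondrocyte and tendon markers rose, and their sums were 1567 to 2236 and 1267 to 3240 on PE2.0, against 347 to 447 and 96.0 to 188 on vehicle arrays. Of 6 endothelial markers 1 rose and 1 fell, of 3 adipocyte markers 2 rose and 1 fell, of 3 atrial markers 1 rose, and none of 2 red cell markers was called. No marker was listed at 0 on any array. The part of these marker shifts in the integrin values was not tested. Since whole tissue was measured, more or fewer cells of a type and more or less RNA per cell cannot be told apart.

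Whether PE2.0 acted differently on the 2 regions was tested as the difference between its effects, outflow minus apex, and 8 of the 21 probe sets were called, 5 positive and 3 negative. Of all probe sets 17.9% were called, 9.84% positive and 8.09% negative. Itga8 differed by 3.04 ± 0.42 and Itgbl1 by 1.22 ± 0.35 (limma, adjusted p 0.000273 and 0.0215). The 3 probe sets of Itgav differed by 0.75 ± 0.20, 0.84 ± 0.25 and 1.04 ± 0.33 (limma, adjusted p 0.0128, 0.0246 and 0.0362). With arrays centred on their median none of the 3 was called (0.64, 0.73 and 0.93, limma adjusted p 0.0533, 0.0634 and 0.0783), and with PE2.0 outflow replicates 1 and 3 alone the brightest was not (0.58, limma adjusted p 0.0606). Itga7 differed by -1.09 ± 0.25 and -1.73 ± 0.27 (limma, adjusted p 0.00629 and 0.000518), and Itga5 is given above. Itgb1, Itgb5, Itga6, Itga1 and Ilk were not called. The call of the dimmest Itgav probe set was lost on leaving out any one of 13 arrays, at adjusted p of 0.0501 to 0.0735 in limma, and that of 1386581_at without PE2.0 outflow replicate 5 (0.76, limma adjusted p 0.0506). Without PE2.0 outflow replicate 2 the 2 brighter probe sets of Itgb5 were called too (0.47 and 0.73, limma adjusted p 0.0455 and 0.00717), and without vehicle apex replicate 3 the dimmer one of Itga8 was (1.17, limma adjusted p 0.0331).

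Within PE2.0 rats, outflow against apex gave 14 called probe sets of 21, 9 higher and 5 lower in the outflow tract. Of all probe sets 28.7% were called, 16% higher and 12.7% lower. The groups were fully apart for 5 probe sets upward and 3 downward, against 11.5% and 8.64% of all. Itga8 averaged 1605 ± 723 in the outflow tract and 153 ± 36.9 in the apex (SD, n = 5 each), a log2 difference of 3.16 ± 0.30 (limma, adjusted p 1.26e-06). Itgbl1 was higher by 1.29 ± 0.25, Itgav by 0.70 ± 0.14 and Itgb5 by 0.62 ± 0.15, while Itga7 was lower, at -0.88 ± 0.18, and Itga5 at -0.58 ± 0.13 (limma, adjusted p 0.000615, 0.000804, 0.00339, 0.00101 and 0.00239). Itgb1 was higher by 0.27 ± 0.095 (limma, adjusted p 0.0397), a call lost on leaving out any one of 5 arrays (PE2.0 apex replicate 1, 2 or 3, PE2.0 outflow replicate 4 or 5; adjusted p 0.0589 to 0.11 in limma) and with the rat as a fixed replicate block (limma, adjusted p 0.0688), but kept with the rat as a random block. In all it was lost in 12 of 34 alternatives. Within vehicle rats, outflow against apex gave none called by limma and 1 probe set, a dim one of Itgb5, at an unadjusted p under 0.05. Of all probe sets, 0% were called there and 3.71% had such an unadjusted p, and 0.254% were fully higher and 0.467% fully lower, against none of the 21. The 4 group means of Itga8 were thus ordered PE2.0 outflow, PE2.0 apex, vehicle outflow and vehicle apex, of which only the step from PE2.0 outflow to PE2.0 apex was called among those tested between neighbours. Those of Itga7 ran from vehicle outflow through vehicle apex and PE2.0 apex to PE2.0 outflow, again with a call only at the last step.

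The genes most like Itga8 and Itga7 were sought among 9994 probe sets by Pearson correlation of log2 signal over 20 arrays, a description in which the points share the differences between groups. For Itga8 these were Plac9 and Tpm1 (both r = 0.98) and S100a4 (r = 0.98). For Itga7 they were Pfkm, Fgf1 and Hjv (r = 0.98 each). Tpm1 encodes a tropomyosin and Pfkm the muscle form of phosphofructokinase.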

How the data were processed

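Right ventricle RNA of 20 rat samples was measured on Affymetrix expression arrays, 1 per sample. The authors deposited 1 linear signal intensity for each probe set and array, per the labels. Which software made it is not given in the sources used here. Of 31099 probe sets, 57 controls were left out of the tests. Gene symbols came from the platform annotation (1 symbol for 20826 probe sets, several for 436, none for 9780), and 20758 matched a current rat gene table by Entrez identifier. The brightest probe set on average stood for its gene. The number of arrays limits the precision.

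Signals were transformed to log2 after adding 16 and fitted by group on all 20 arrays with limma 3.58.1 (R 4.3.3), with two-sided p-values adjusted by Benjamini-Hochberg over 31042 probe sets. Fold changes are of signal plus 16. On simulated data for the outflow comparison over 31042 probe sets, 172 of 200 probe sets changed 2-fold were recovered, with 12 false calls. The 200 came from the brighter part of the array only, averaging over 8 on the log2 scale. Both Itga8 probe sets, at 7.93 and 6.28, lay under that limit, as did some of Itga6, Itga7, Itgav and Itgb5. Recovery at such dim signals was not tested, nor with as many changes as the 34.5% called in the outflow tract. The members and lists were chosen with earlier results of these data known. All member probe sets are reported; of each context list, up to 6 called genes with the smallest p are named, plus the Ilk partners, melusin, talins, Vcl and Ptk2. Vtn, the single ligand that fell, and the genes that share the Itga1 gap were named after their values were seen. So were Fermt2, Col4a1, Lama4, Lama5, Lamc1 and Nid1, named for their other probe sets.

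Arrays of the same replicate number correlated in their deviations from group means at 0.181 to 0.283 between apex and outflow of PE2.0 rats and at 0.181 to 0.276 in vehicle rats (12310 probe sets), so within a treatment a number was taken to mark 1 rat. Between PE2.0 and vehicle they were not paired. The p-values weigh differences between group means against the spread between arrays. The main fit had no rat term, so the apex and outflow arrays of 1 rat entered it as independent. Fits with a rat term are given at the end. Alternatives covered scaling, the added constant, dim probe sets, variance settings, array weights, replicate blocks, the GAPDH ratio, a minimum fold of 1.2 and leaving out each array.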

Additional observations from a re-analysis of the deposited data

Results flagged for a closer look

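In 84 groups of 5 arrays tested, 6 held an array whose gap to the next one was above 0.71 of the range of the group, where chance gives about 1 in 20. Itga1 was flagged at PE2.0 apex replicate 3 (signal 1136, gap 0.866 of the range) and PE2.0 outflow replicate 3 (1313, gap 0.743), both highest of their group. Itga5 stood apart at PE2.0 apex replicate 3 (932, gap 0.869, highest), although the other 4 PE2.0 apex arrays also lay above the vehicle apex arrays. The dimmest Itgav probe set, 1383880_at, was highest at vehicle outflow replicate 3 (184, gap 0.794). The second Itgb1 probe set, 1387346_at, was lowest at PE2.0 outflow replicate 2 (2410, gap 0.777), the array with the GAPDH ratio of 6.12. Itgbl1 was lowest at vehicle outflow replicate 5 (714, gap 0.866).

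PE2.0 outflow replicate 2 was the lowest of its group in 9 of the 21 probe sets and the highest in 5. Outflow changes without it are given above for the brightest probe set of each gene.

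The effect of PE2.0 differed between outflow tract and apex in 8 probe sets (limma, log2 difference outflow minus apex). These were Itga8 at 3.04, Itgbl1 at 1.22, Itgav at 0.75, 0.84 and 1.04, Itga7 at -1.09 and -1.73, and Itga5 at -0.72. The adjusted p were 0.000273 for Itga8, 0.0215 for Itgbl1, 0.0128, 0.0246 and 0.0362 for Itgav, 0.00629 and 0.000518 for Itga7 and 0.0122 for Itga5.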

How the results depend on the processing

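Of 21 probe sets, the number called in the outflow tract was 13 and lay between 10 and 16 in the alternatives run. Leaving out single arrays gave 12 to 16 calls there, 0 to 1 in the apex (against 0), 6 to 10 for the difference between regions (against 8), 11 to 16 for outflow against apex in PE2.0 rats (against 14) and 0 in vehicle rats. The apex count was 1, Itgbl1, without PE2.0 outflow replicate 2 and with PE2.0 outflow replicates 1 and 3 only. The difference between regions was called for 5 probe sets with arrays centred on their median, the 3 of Itgav being lost, and for 3 with a minimum fold of 1.2, and outflow against apex in PE2.0 rats for 7 with that minimum fold, which is a stricter test by construction. Centring moved the outflow median of all probe sets to -0.08, against 0.05, and the calls to 4415 higher and 5966 lower, against 6083 and 4637; the cause was not tested. No called probe set changed sign in any setting. With the replicate block (the rat as a fixed term, added after seeing the data), 8 probe sets were called for the difference between regions and 13 for outflow against apex in PE2.0 rats, the lost one being Itgb1; the rat as a random block changed none of the 5 counts. With the replicate number as a fixed term across treatments, which the numbers do not support as a pairing, the outflow tract gave 13 calls, 12 of them on the same probe sets and 1 on Itga1 (adjusted p 0.0431, limma). Dim probe sets, such as those of Itga6, Itga7 and Itgb5 under the array median, are limited by signal over background.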
